A study of Mus musculus with 10 samples.

Results

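Triglyceride is built in fat cells from glycerol-3-phosphate and activated fatty acids. Glycerol-3-phosphate comes from glycolysis through GPD1, from glycerol, or from small carbon skeletons through glyceroneogenesis. Acyltransferases of the GPAT and AGPAT families add fatty acids to give phosphatidate, lipins remove its phosphate, and DGAT enzymes add the last fatty acid to diacylglycerol. Phosphatidate is also the branch point toward CDP-diacylglycerol, phosphatidylglycerol and cardiolipin, the mitochondrial phospholipid made by the enzyme that Crls1 encodes. Brown fat stores triglyceride in many small droplets and burns the fatty acids released from them to make heat.

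The genes described are 10 of the 15075 in the deposited table, taken by their symbols and not by their values. They are Gpd1, Gpd2, Gpam, Agpat2, Agpat3, Lpin1, Lpin2, Dgat1 and Dgat2, which encode enzymes, and Aqp7, which encodes a glycerol channel and no enzyme. Interscapular brown fat (iBAT) of 5 Control and 5 AdCKO mice, all C57BL/6, 20 weeks old and kept at room temperature, was profiled by RNA sequencing with 1 library from each mouse. AdCKO mice are homozygous for a Crls1 allele with loxP sites around exon 4 and carry the Adipoq-Cre transgene, whose promoter is active in brown and in white adipocytes. Control mice are homozygous for the same floxed allele and lack Cre, although their labels read wild type, so no group carries Cre without the floxed allele. The unit is normalized reads for each kb of exon counted, and every log2 fold change (log2FC) compares AdCKO with Control after 1 was added to each value, so that low genes show less than their full change. A gene was called at a limma adjusted p under 0.01 (Benjamini-Hochberg, two-sided) among 11244 genes, those whose mean reached 10 in either group.

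The mean of Crls1 itself was 1060 ± 191 (SD, n = 5) in Control and 217 ± 26.4 (SD, n = 5) in AdCKO, with a log2FC of -2.27 (limma adjusted p = 3.53e-08). In Control the summed level of 8 brown adipocyte markers was between 219488 and 249022, in AdCKO between 137725 and 160620, with 6 of them lower, Retn (resistin) higher and Fabp4 not called. Of this list Adipoq, Plin1, Cidec, Fabp4, Lipe and Retn are adipocyte genes not specific to brown fat. Fabp4 made up most of that sum (mean 147241 in Control and 108235 in AdCKO), while Ucp1, the uncoupling protein of brown fat, went from 36912 to 14069 and Cidea, a lipid droplet protein, from 18170 to 6207. Macrophage markers (8 of 8 higher) summed to between 426 and 1206 in Control and between 5748 and 7844 in AdCKO, and fibroblast markers (6 of 6 higher) to between 968 and 1282 and between 4134 and 5835. Lyz2 made up most of the macrophage sum (mean 469 in Control and 5196 in AdCKO). The rise was smallest for Cd14, from 46.1 to 59.6 with overlapping groups. Skeletal muscle markers (1 of 8 called) summed to between 94.8 and 123 in Control, to 127 and 139 in AdCKO 5 and 3, and to 5375, 21203 and 8109 in AdCKO 1, 2 and 4. Endothelial markers (3 of 6 higher) ran from 1442 to 1842 and from 1541 to 2174, and lymphoid markers (0 of the 5 tested called, of 6 listed) from 37.0 to 55.1 and from 39.6 to 224. In bulk tissue, fewer adipocytes and less RNA per adipocyte cannot be told apart, and the part of these cell types in the results was not tested.

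All 10 genes passed the filter on low values. In AdCKO iBAT 7 of them were lower, 0 were higher and 3 were not called (Lpin2, Dgat1 and Aqp7). Of all tested genes, 28.0% were called lower and 25.6% higher. For 6 genes (Gpd1, Gpd2, Gpam, Agpat2, Agpat3 and Dgat2) every AdCKO library lay below every Control library, which held for 26.4% of all tested genes. The reverse, every AdCKO library above every Control library, held for 0 of the 10 genes and 24.5% of all tested genes. With AdCKO 1, 2 and 4 left out because of their muscle markers, 6 of the 10 were lower (all of the 7 but Lpin1) and 0 higher, against 19.7% and 18.8% of the genes then tested. The median log2FC was -1.05 over the 10 genes and -0.01 over all tested genes.

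**Figure D1:**
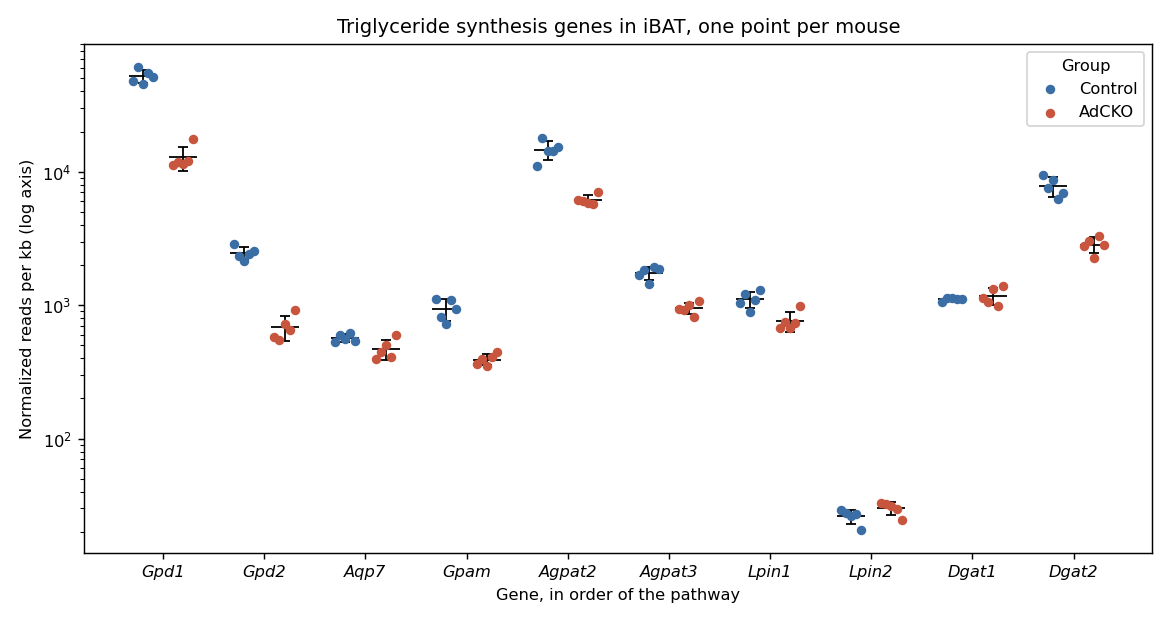
Normalized reads per kb (log axis) of the 10 genes, in order of the pathway, with 1 point per mouse and bars for the mean and SD of the 5 Control and 5 AdCKO libraries. Gpd1, Gpd2, Gpam, Agpat2, Agpat3 and Dgat2 show no overlap between groups, while the points of Aqp7, Lpin1, Lpin2 and Dgat1 overlap.

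RefSeq promoter sequences (250 bases before to 50 after a transcript start, GRCm38.p6) were held for 7 of the 10 genes, with 12 starts in all. Gpd1, Dgat1 and Dgat2 had no entry. One start each, the one farthest upstream, is shown for 5 genes called lower and for Lpin2, which was not called. These calls are those under the authors' normalization, and those of Lpin1 and Lpin2 change under other scalings described later. Capitals mark matches to the motifs described after the sequences.
Gpd2: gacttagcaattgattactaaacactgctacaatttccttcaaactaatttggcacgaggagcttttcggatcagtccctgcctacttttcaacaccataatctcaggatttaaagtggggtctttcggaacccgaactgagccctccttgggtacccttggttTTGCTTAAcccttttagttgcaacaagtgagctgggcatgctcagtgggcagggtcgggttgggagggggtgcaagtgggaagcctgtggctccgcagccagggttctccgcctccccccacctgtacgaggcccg
Gpam: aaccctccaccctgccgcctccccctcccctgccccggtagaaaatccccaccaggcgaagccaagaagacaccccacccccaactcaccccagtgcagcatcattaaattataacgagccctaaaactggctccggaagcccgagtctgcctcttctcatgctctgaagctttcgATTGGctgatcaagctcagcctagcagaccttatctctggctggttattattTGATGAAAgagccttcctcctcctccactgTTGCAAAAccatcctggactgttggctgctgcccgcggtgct
Agpat2: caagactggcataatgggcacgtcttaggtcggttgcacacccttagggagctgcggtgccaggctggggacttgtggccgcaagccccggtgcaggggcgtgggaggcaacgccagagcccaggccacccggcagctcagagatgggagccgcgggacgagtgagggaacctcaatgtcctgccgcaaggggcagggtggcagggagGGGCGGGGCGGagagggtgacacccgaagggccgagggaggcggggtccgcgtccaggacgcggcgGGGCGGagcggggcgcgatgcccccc
Agpat3: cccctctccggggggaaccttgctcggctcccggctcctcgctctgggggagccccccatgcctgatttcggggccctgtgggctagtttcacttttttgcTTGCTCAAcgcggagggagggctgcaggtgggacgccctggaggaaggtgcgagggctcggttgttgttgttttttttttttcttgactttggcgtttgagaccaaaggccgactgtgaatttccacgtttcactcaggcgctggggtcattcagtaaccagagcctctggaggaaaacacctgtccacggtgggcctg
Lpin1: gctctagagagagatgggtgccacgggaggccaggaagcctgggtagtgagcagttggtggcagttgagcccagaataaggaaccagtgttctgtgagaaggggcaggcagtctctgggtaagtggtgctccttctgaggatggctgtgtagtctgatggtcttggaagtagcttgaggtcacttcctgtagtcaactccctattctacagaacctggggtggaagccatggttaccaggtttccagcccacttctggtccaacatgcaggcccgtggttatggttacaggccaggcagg
Lpin2: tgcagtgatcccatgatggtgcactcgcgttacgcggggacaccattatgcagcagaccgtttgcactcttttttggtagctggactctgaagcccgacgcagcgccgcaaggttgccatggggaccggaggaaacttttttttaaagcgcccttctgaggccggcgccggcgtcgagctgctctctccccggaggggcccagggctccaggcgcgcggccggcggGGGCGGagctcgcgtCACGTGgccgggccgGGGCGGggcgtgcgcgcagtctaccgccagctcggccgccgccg

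The Gpd2 window is chr2:57237428-57237727 on the plus strand. The Gpam window is chr19:55127189-55127488 on the minus strand. The Agpat2 window is chr2:26604368-26604667, that of Agpat3 is chr10:78351651-78351950 and that of Lpin1 is chr12:16610917-16611216, all on the minus strand. The Lpin2 window is chr17:71183282-71183581 on the plus strand. Both strands were searched for the CCAAT box (CCAAT), the TATA box (TATAAA), the E-box (CACGTG), the GC box (GGGCGG), a C/EBP-type motif (TTGCNNAA) and the ATF4-C/EBP core (TGATGNAA). Among all 32851 promoter windows of the same length, these occurred in 37.4%, 13.6%, 7.15%, 35.7%, 10.8% and 3.97%. Among the 12 windows of these genes, the CCAAT box occurred in 2, the TATA box in 0, the E-box in 1, the GC box in 5, the C/EBP-type motif in 4 and the ATF4-C/EBP core in 2.

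The printed Gpam window held 3 kinds of motif, with a CCAAT box beginning at base -74, the ATF4-C/EBP core at -22 and the C/EBP-type motif at 9, counted from the start as base 1. The other Gpam window, which is not shown, lies downstream and held a GC box at -16 and no other match. The printed windows of Gpd2 and Agpat3 each had 1 C/EBP-type match, at -86 and -149. The other Gpd2 window, also downstream and not shown, held GC boxes at -134 and 25 and no other match. Which of these starts the counted transcripts use was not examined. Agpat2, whose window was 72.0% G and C, had 3 GC boxes, of which those at -42 and -37 overlap each other. Lpin1 had no match. Lpin2 had an E-box at -9 and GC boxes at -24 and 7, and its window farthest downstream, which is not shown, held 3 CCAAT boxes and 1 match each to the C/EBP-type motif and the ATF4-C/EBP core. In the printed windows no match overlapped a match to another motif. These matches describe letters only, and no binding was measured.

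Glycerol-3-phosphate supply held the gene of the 10 with the highest level and, except under quantile normalization, the lowest fold change. Gpd1 (NM_010271, mm9 chromosome 15, 99548024 to 99555438, plus strand) encodes the cytosolic dehydrogenase that reduces dihydroxyacetone phosphate to glycerol-3-phosphate. It measured 47663, 60804, 45056, 55218 and 51563 in Control 1 to 5, and 11204, 11809, 11497, 11985 and 17477 in AdCKO 1 to 5. Every AdCKO library was far below every Control library, and AdCKO 5 stood above the other AdCKO libraries. The mean fell from 52061 ± 6226 to 12794 ± 2635, or 4.07-fold, a log2FC of -2.04 (SE 0.15, limma adjusted p = 2.61e-07). Under quantile normalization its log2FC was -0.97, behind Gpd2 (-1.54) and Gpam (-1.01). By level per kb Gpd1 ranked 3 of 15075 genes in Control and 10 in AdCKO. An antisense transcript, Gm16537, overlaps 384 exon bases of the annotated Gpd1 transcript closest to the counted one (2861 bases, against 2785 counted). The kit does not mark strand, so reads from this pair cannot be told apart there.

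Gpd2 (NM_001145820, chromosome 2, 57090089 to 57223130, plus strand) encodes the mitochondrial dehydrogenase that oxidizes glycerol-3-phosphate and passes electrons to the respiratory chain. Its values were 2885, 2348, 2142, 2437 and 2563 in Control and 575, 549, 719, 657 and 914 in AdCKO. The groups did not overlap, and AdCKO 5 was again the highest of its group. The AdCKO mean was 27.6% of Control, with a log2FC of -1.87 (SE 0.13, limma adjusted p = 2.01e-07). A lincRNA on the opposite strand overlaps 275 of its 5745 counted bases. GPD1 and GPD2 together form the glycerol-3-phosphate shuttle, which carries electrons from cytosolic NADH into mitochondria.

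Aqp7 (NM_007473, chromosome 4, 40980107 to 40995169, minus strand) encodes the channel through which glycerol crosses the adipocyte membrane. It measured 528, 601, 557, 621 and 543 in Control and 399, 445, 502, 412 and 595 in AdCKO. AdCKO 5 lay inside the Control range, and the other 4 AdCKO libraries lay below it. The log2FC of -0.29 (SE 0.11, 95% interval -0.52 to -0.06) was not called (limma adjusted p = 0.0292) and turned positive under 2 of the scalings described later. Without AdCKO 5 it was called, at -0.38 (limma adjusted p = 0.00205).

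Gpam (NM_008149, chromosome 19, 55144224 to 55173937, minus strand) encodes GPAT1, the mitochondrial acyltransferase that puts the first fatty acid on glycerol-3-phosphate. Its values were 1113, 809, 717, 1102 and 940 in Control and 362, 396, 349, 410 and 443 in AdCKO. All AdCKO libraries lay within a narrow range below the lowest Control value, and Control was the more variable group (CV 18.7% against 9.63%). It was lower in AdCKO by a log2FC of -1.24 (SE 0.12, limma adjusted p = 2.98e-06).

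Agpat2 (NM_026212, chromosome 2, 26448577 to 26459937, minus strand) encodes the enzyme that adds the second fatty acid to lysophosphatidate, and its loss in people causes a congenital lipodystrophy. It measured 11096, 17766, 14403, 14274 and 15254 in Control and 6097, 6004, 5861, 5706 and 7107 in AdCKO. The groups did not overlap, with Control 1 the lowest and Control 2 the highest Control library. The log2FC was -1.23 (SE 0.13, limma adjusted p = 3.61e-06). Its level ranked 18 of all genes in Control and 27 in AdCKO, and 64 of its annotated exon bases are shared with Egfl7 on the other strand.

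Agpat3 (NM_053014, chromosome 10, 77734308 to 77814445, minus strand) encodes a second enzyme of the AGPAT family. Its values were 1684, 1822, 1442, 1930 and 1882 in Control and 932, 927, 1008, 817 and 1069 in AdCKO. Here too every AdCKO library lay below every Control library. The AdCKO mean was 54.3% of Control, with a log2FC of -0.88 (SE 0.10, limma adjusted p = 7.42e-06).

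Lpin1 (NM_172950, chromosome 12, 16542475 to 16596576, minus strand) encodes lipin 1, a phosphatidate phosphatase that yields diacylglycerol and also acts as a transcriptional coregulator. It measured 1033, 1220, 890, 1089 and 1294 in Control and 676, 748, 669, 740 and 989 in AdCKO. The groups overlapped, because AdCKO 5 lay above Control 3. The log2FC of -0.53 (SE 0.12) was the smallest decrease called among the 10 genes (limma adjusted p = 0.00241). It was not called when AdCKO 1, 2 and 4, the libraries with muscle markers, were left out (-0.43, limma adjusted p = 0.0579), and its sign turned when libraries were scaled to adipocyte markers (0.15).

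Lpin2 (NM_022882, chromosome 17, 71533318 to 71599158, plus strand) encodes lipin 2, which carries out the same reaction. Its values were 29.1, 27.9, 26.2, 27.1 and 20.8 in Control and 33.2, 32.6, 31.1, 29.6 and 24.6 in AdCKO. The groups overlapped only through AdCKO 5, and replicate 5 was the lowest library in each group. The means were 26.2 ± 3.20 and 30.2 ± 3.42, a log2FC of 0.20 (SE 0.11, 95% interval -0.04 to 0.44) that was not called (limma adjusted p = 0.123). Lpin2 was called higher under 2 of the scalings described later and stood at -0.049, not called, under quantile normalization. Its level per kb was the lowest of the 10 genes, at rank 8484 of 15075 in Control.

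Dgat1 (NM_010046, chromosome 15, 76332445 to 76342248, minus strand) encodes the endoplasmic reticulum enzyme that esterifies diacylglycerol, mainly with fatty acids taken up or recycled. Its values were 1053, 1129, 1133, 1108 and 1110 in Control, the tightest group of any of the 10 genes (CV 2.89%). In AdCKO they were 1137, 1064, 1323, 987 and 1397, with 3 libraries above and 1 below the Control range. Dgat1 was not called, with a log2FC of 0.08 (SE 0.09, 95% interval -0.12 to 0.29, limma adjusted p = 0.463). It was called higher under the 3 other scalings described later.

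Dgat2 (NM_026384, chromosome 7, 106302173 to 106331223, minus strand) encodes a structurally unrelated enzyme for the same reaction, linked mainly to newly made fatty acids and found also at lipid droplets. It measured 9464, 7545, 8702, 6265 and 6913 in Control and 2773, 3025, 2246, 3314 and 2804 in AdCKO. The groups were well apart, with the highest AdCKO library below the lowest Control library. Its log2FC was -1.45 (SE 0.13, limma adjusted p = 1.52e-06), and the rank by level went from 57 to 105.

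AdCKO 5 was the highest AdCKO library for 8 of the 10 genes (all but Lpin2 and Dgat2), against 24.8% of all tested genes. Of the 8 brown adipocyte markers, AdCKO 5 was the highest library of its group for Ucp1, Cidea, Plin1 and Lipe, next to the highest for Fabp4, next to the lowest for Adipoq and Cidec and the lowest for Retn. Its fibroblast sum (4134) was the lowest of the group. Control 3 was the lowest Control library for Gpd1, Gpd2, Gpam, Agpat3 and Lpin1, 5 of the 10, against 22.3% of all tested genes. Control 3 had the highest macrophage (1206), fibroblast (1282), skeletal muscle (123) and lymphoid (55.1) sums of its group, but not the highest endothelial sum. Its brown adipocyte sum (226338) was not the lowest of the group. Of the markers in that sum, Control 3 was the lowest Control library for Ucp1 (24203) and the highest for Adipoq (7079) and Retn (588). It was neither the lowest nor the highest for the others. The part of these cell types in the spread was not tested.

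Because a ratio of 2 genes within a library does not depend on how libraries are scaled to each other, 4 pairs of enzymes were also compared in this way (exact two-sided permutation test, Benjamini-Hochberg over the 4 pairs). The ratio of Dgat2 to Dgat1 was 8.99, 6.68, 7.68, 5.65 and 6.23 in Control and 2.44, 2.84, 1.70, 3.36 and 2.01 in AdCKO. No AdCKO ratio reached the lowest Control ratio, and the mean went from 7.05 ± 1.31 to 2.47 ± 0.66. The difference of the mean log2 ratios corresponds to a 2.90-fold decrease (exact permutation p = 0.0079, adjusted p = 0.032, n = 5 each). This p is the smallest that 5 against 5 can give. The decrease passed the threshold of 0.05 in all 10 tests with 1 library left out.

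The ratio of Lpin2 to Lpin1 was higher in AdCKO, at 0.0408 ± 0.00952 against 0.0243 ± 0.00528 (exact permutation p = 0.024, adjusted p = 0.032, n = 5 each). The 1 AdCKO library inside the Control range was AdCKO 5. The adjusted exact permutation p was 0.074, 0.063 and 0.085 without AdCKO 1, 2 or 3. The ratio of Agpat3 to Agpat2 was 0.155 ± 0.0106 in AdCKO and 0.123 ± 0.0219 in Control, with the same p and adjusted p by the exact test. Its adjusted exact permutation p was 0.074, 0.074, 0.085 and 0.053 without AdCKO 1, 2, 3 or 5. The ratio of Gpd2 to Gpd1 was 0.0481 ± 0.00811 in Control and 0.0535 ± 0.00588 in AdCKO, a difference that did not pass the test (exact permutation p = 0.23, adjusted p = 0.23, n = 5 each), although it did without Control 1 (0.25 on the log2 scale, adjusted exact permutation p = 0.048). Quantile normalization, which reshapes each library, left the Dgat2 to Dgat1 difference at -1.20 on the log2 scale but turned those of Agpat3 to Agpat2 (-0.15) and Gpd2 to Gpd1 (-0.57) to the other sign.

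**Figure D2:**
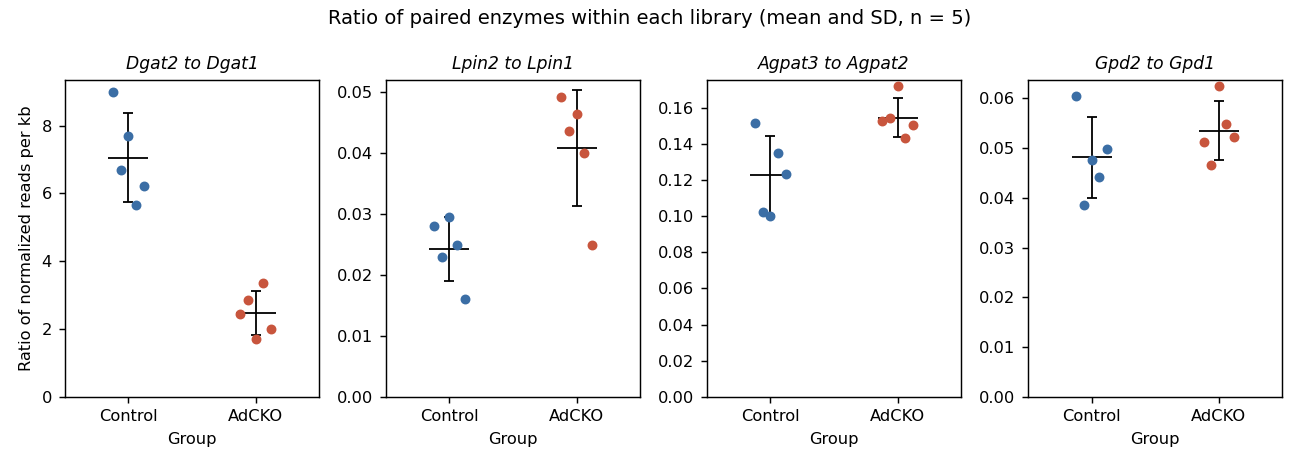
Ratio of normalized reads per kb of 2 enzymes within each library, with 1 point per mouse and bars for the mean and SD of 5 Control and 5 AdCKO libraries, on axes that start at 0. The Dgat2 to Dgat1 ratios of the AdCKO libraries, 1.70 to 3.36, all lie below the lowest Control ratio of 5.65, while the Gpd2 to Gpd1 ratios overlap.

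Since the values are per kb, the enzymes of 1 step can be set side by side within each library. Dgat1 made up 12.7% ± 1.96 of the summed level of both DGAT genes in Control (SD, n = 5 here and for the other steps) and 29.7% ± 5.62 in AdCKO, while the sum went from 8885 ± 1288 to 4014 ± 288. Among the glycerol-3-phosphate acyltransferases, Gpam had 41.8% ± 1.59 in Control and 38.3% ± 3.12 in AdCKO. Agpat6, which encodes GPAT4 of the endoplasmic reticulum, went from 56.1% ± 1.34 to 42.9% ± 2.81, and Agpat9, which encodes GPAT3, from 2.06% ± 0.37 to 18.8% ± 2.26. The sum of that step was 2237 ± 379 in Control and 1025 ± 63.7 in AdCKO. Agpat2 remained most of the AGPAT step, at 84.0% ± 2.40 and 79.1% ± 0.87, and Lpin1 most of the lipin step, at 96.6% ± 0.68 and 93.7% ± 1.19. The sums of these steps went from 17292 ± 2465 to 7781 ± 668 and from 1143 ± 157 to 815 ± 128. These shares are a description and were not tested.

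**Figure D3:**
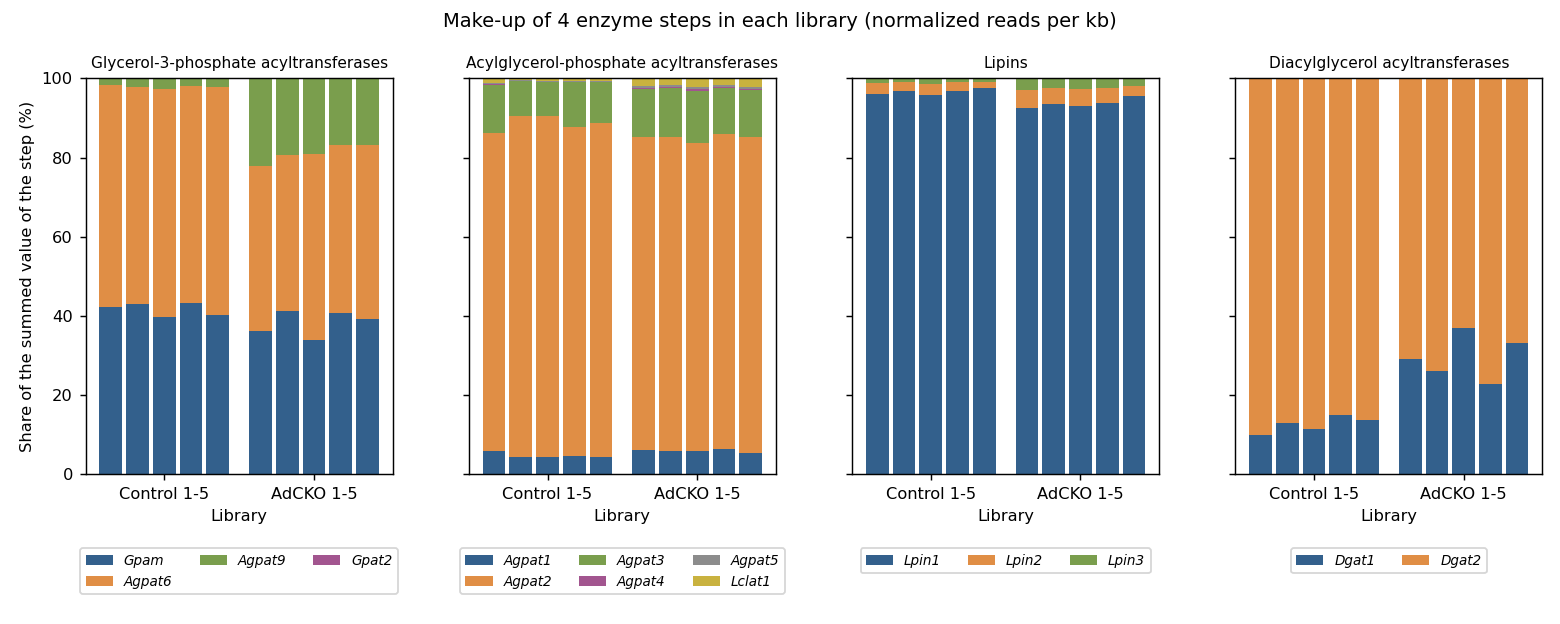
Share (%) of each gene in the summed normalized reads per kb of 4 enzyme steps, with 1 stacked bar for each of the 5 Control and 5 AdCKO libraries. Agpat9 holds between 16.6% and 22.1% of its step in the AdCKO libraries and between 1.68% and 2.66% in Control, and Dgat1 holds between 22.9% and 37.1% against at most 15.0% in Control.

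The other genes of the pathway were taken from a list of 36, of which 34 were in the table and 29 passed the filter. Of these 29, 15 were lower, 5 were higher and 9 were not called, against 28.0% and 25.6% of all tested genes, and their median log2FC was -0.27. Agpat4, among the 5 higher, passed the filter only through its AdCKO mean. Among genes of glycerol-3-phosphate supply, Pck1, the cytosolic enzyme of glyceroneogenesis, fell from 13139 ± 3451 to 4208 ± 847 (log2FC -1.62, limma adjusted p = 9.82e-06). Pck2, its mitochondrial counterpart, rose from 30.0 ± 3.48 to 89.4 ± 5.38 (1.55, limma adjusted p = 4.6e-08). Gpd1l, which resembles Gpd1, and Pgp, a glycerol-3-phosphate phosphatase, were lower at -0.65 and -0.83, but Gpd1l was not called with 1 total per library (-0.17, limma adjusted p = 0.0312). With adipocyte markers set equal neither was called (0.028 for Gpd1l, -0.15 for Pgp). Glycerol kinase (Gyk) was not called, with 473 ± 188 in Control and 752 ± 221 in AdCKO (limma adjusted p = 0.0374).

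The glycerol-3-phosphate acyltransferases went in opposite directions. Agpat9 rose from 45.2 ± 3.87 to 192 ± 19.6, a log2FC of 2.06 (SE 0.09, limma adjusted p = 5.03e-09), with every AdCKO library above every Control library. Expression of Agpat6 fell from 1254 ± 207 to 440 ± 49.0 (-1.50, SE 0.12, limma adjusted p = 4.54e-07). In the annotation, a lincRNA on the other strand overlaps 437 bases of Agpat9. Among the AGPAT genes, Agpat1 fell (-0.81) and Agpat5 was just past the threshold (-0.27, limma adjusted p = 0.00615), whereas Agpat4 rose from 9.29 ± 0.65 to 24.9 ± 3.87 (1.32, limma adjusted p = 7.69e-07). Agpat4 reached the filter mean of 10 only in AdCKO, so at its Control level only a rise could bring it into the test. With adipocyte markers set equal Agpat1 was not called (-0.12, limma adjusted p = 0.305). Agpat5 was not called in 7 of the 10 fits with 1 library left out, and turned positive under 2 scalings (0.20 with 1 total per library, 0.40 with adipocyte markers set equal).

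Of the other phosphatidate phosphatases, Lpin3 rose from 11.7 ± 1.87 to 19.9 ± 0.92 (0.74, limma adjusted p = 1e-04) and Ppap2c, a lipid phosphate phosphatase of the cell surface, from 28.2 ± 2.78 to 44.4 ± 6.75 (0.63). Ppap2a and Ppap2b were not called. Mogat1, which makes diacylglycerol from monoacylglycerol, fell from 106 ± 15.0 to 35.5 ± 7.95 (-1.57, limma adjusted p = 2.02e-06), and Mogat2 was not called. Among genes at the branches toward phospholipids, Chpt1, which uses diacylglycerol to make phosphatidylcholine, was lower at -1.26 and Cds1, which turns phosphatidate into CDP-diacylglycerol, at -0.46, which turned to 0.014 and 0.21 under these 2 scalings. On the other strand, Sycp3 shares 420 exon bases with an annotated Chpt1 transcript of 3898 bases, and BC035947 shares 96 with Mogat1. Only 1381 bases of Chpt1 were counted, and whether the shared bases lie among them was not examined. Cds2, Cept1 and Ept1 were not called.

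The lipid droplet genes Bscl2, which encodes seipin, and Fitm2 were lower at -0.61 and -0.55, but neither was called with 1 total per library (-0.13 and -0.074) or with adipocyte markers set equal (0.070 and 0.13). Fitm1 was not called. It measured 6.40 to 7.17 in Control, 5.26 and 6.23 in AdCKO 3 and 5, and 21.6, 55.8 and 27.4 in AdCKO 1, 2 and 4, the libraries with muscle markers, whose part was not tested. All 4 listed transcription factors of lipid synthesis were lower, although Pparg turned to 0.015 with 1 total per library and to 0.22 with adipocyte markers set equal, and Srebf1 lost its call under both (-0.23, limma adjusted p = 0.102, and -0.024, limma adjusted p = 0.866). Mlxipl, which encodes the carbohydrate-responsive factor ChREBP, fell from 1567 ± 229 to 452 ± 65.8 (-1.79, limma adjusted p = 1.66e-07), Cebpa from 3032 ± 234 to 1419 ± 252 (-1.11), Srebf1 from 1148 ± 207 to 701 ± 106 (-0.71) and Pparg from 1197 ± 153 to 870 ± 149 (-0.47, limma adjusted p = 0.00536). The groups of Pparg overlapped, and it was not called in 6 of the 10 fits with 1 library left out, nor under quantile normalization (-0.17). Rai1 on the other strand shares 109 annotated exon bases with Srebf1.

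**Figure D4:**
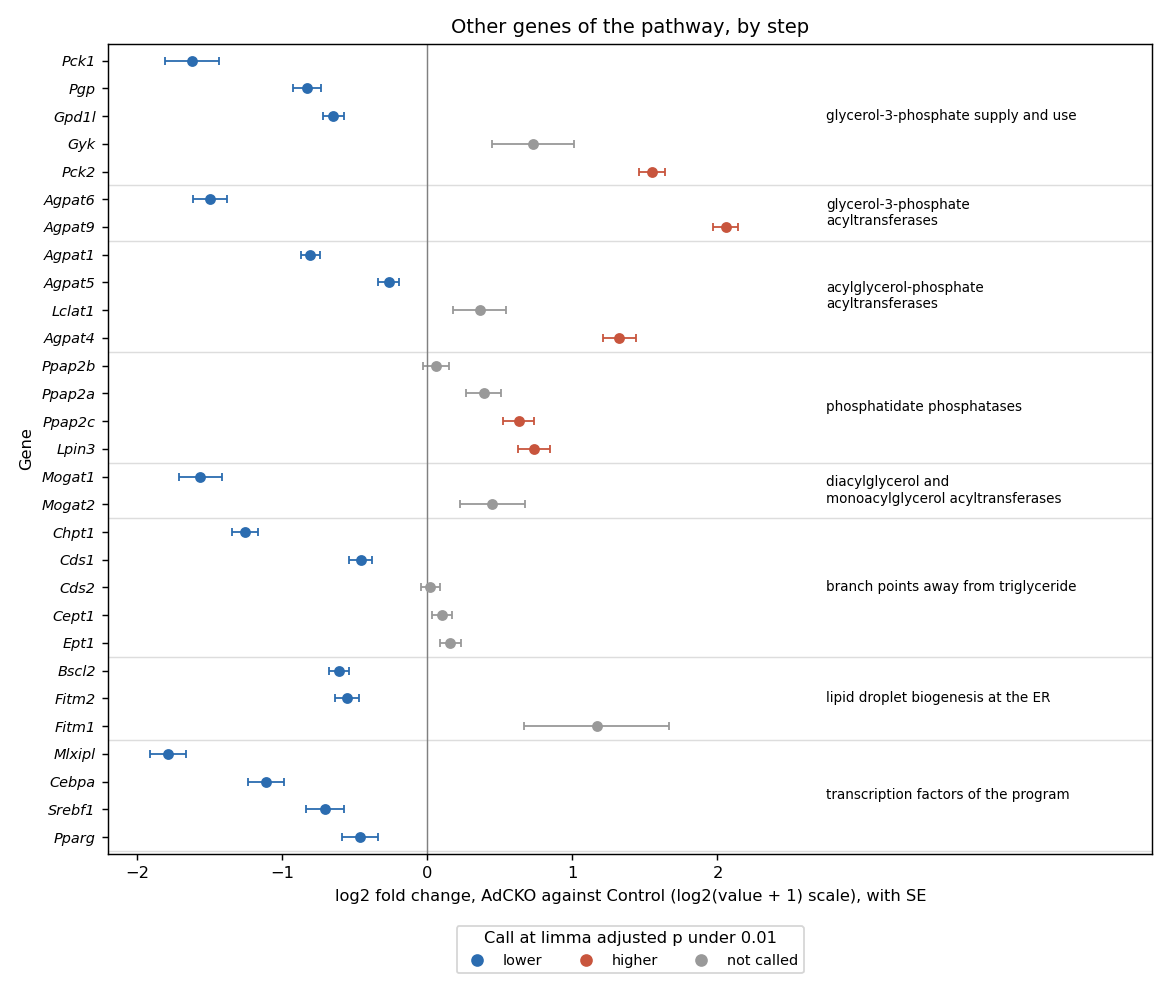
The log2FC values (AdCKO against Control, log2(value + 1) scale, bars for SE, n = 5 each) of the 29 tested genes outside the 10, by step, with blue for lower, red for higher and grey for not called at a limma adjusted p under 0.01. The extremes are Mlxipl at -1.79 and Agpat9 at 2.06.

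The scale between libraries bears on these calls, since normalized reads summed to 7615403 to 8171138 per Control library and to 5419800 to 5843024 per AdCKO library. With every library rescaled to 1 total, the median log2FC of all tested genes became 0.46, with 9.77% called lower and 60.6% higher. Then 6 of the 10 genes were still called lower (all of the 7 but Lpin1, at -0.05), and Lpin2 (0.66, limma adjusted p = 0.000223) and Dgat1 (0.56, limma adjusted p = 0.000162) were called higher, while Aqp7 stood at 0.19 and was not called. Relative to the median of all genes, the values under that scaling were -2.02 for Gpd1, -1.43 for Dgat2, -0.51 for Lpin1, -0.27 for Aqp7, 0.10 for Dgat1 and 0.20 for Lpin2. Subtracting the median nearly undoes such a rescaling. These values therefore lie near those of the authors' normalization by construction (-2.03 for Gpd1, -1.44 for Dgat2) and are no separate check. Setting the geometric mean of the adipocyte genes Adipoq, Plin1, Cidec, Fabp4 and Lipe equal in every library, a choice made after the data were seen, moved the median to 0.66. Under it Gpd1 (-1.35), Gpd2 (-1.19), Gpam (-0.56), Agpat2 (-0.55) and Dgat2 (-0.77) were called lower, Agpat3 (-0.20), Lpin1 (0.15) and Aqp7 (0.39) were not called, and Lpin2 (0.86) and Dgat1 (0.76) were called higher. Quantile normalization called the same 6 genes lower as the same total did, against 31.1% of all tested genes. It called Dgat1 higher (0.45, limma adjusted p = 0.00167), against 22.4% of all tested genes. It made several decreases smaller, to -0.97 for Gpd1, -0.75 for Dgat2 and -0.36 for Agpat2, which relative to its median of all genes (-0.081) were -0.89, -0.67 and -0.28. Among the 29 other pathway genes, 8 were lower and 13 higher with 1 total per library, and 6 lower and 15 higher with adipocyte markers set equal, where 4.99% of all tested genes were lower and 68.5% higher. Under all 4 normalizations Gpd1, Gpd2, Gpam, Agpat2 and Dgat2 were called lower.

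**Figure D5:**
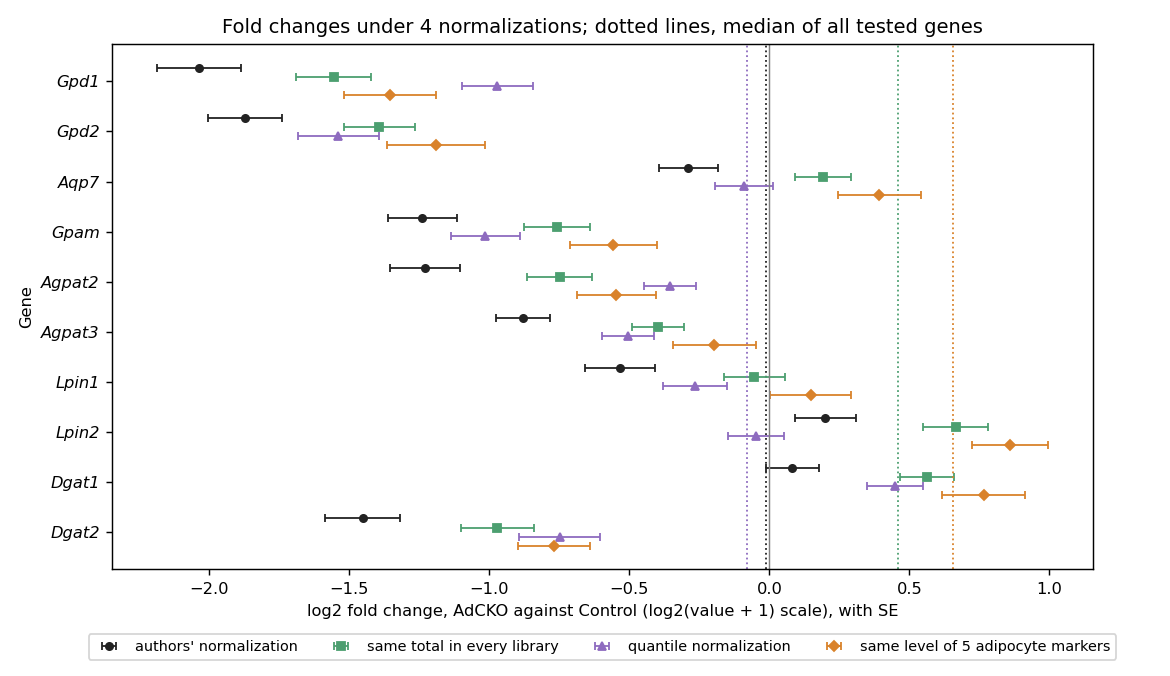
The log2FC values (AdCKO against Control, log2(value + 1) scale, bars for SE, n = 5 each) of the 10 genes under 4 normalizations, with dotted lines at the median of all tested genes under each. Gpd1, Gpd2, Gpam, Agpat2 and Dgat2 stay left of 0 under all 4, and Dgat1 moves from 0.08 under the authors' normalization to 0.76 when adipocyte markers are set equal.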

How the data were processed

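The authors sequenced polyadenylated RNA (TruSeq 2, an unstranded kit), used STAR for mapping to mm9, iRNA-seq for reads on exons and DESeq2 for normalization, per the paper's methods and the submitters' processing notes, where versions are not given in the sources used here. The deposited values are a signal, normalized reads per kb of counted exon for 1 RefSeq transcript per gene. They are not counts. None is 0, and between 23.7% and 25.4% of low values lay within 0.1 of a whole step, against 20% without steps, so whole reads were not recovered, depth is unknown and only the spread between mice is given. The deposited group means, log2 fold changes, adjusted p-values and lists of called genes of the authors were not used.

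Values were tested as log2(value + 1) with limma 3.58.1 (R 4.3.3, intensity trend, two-sided, Benjamini-Hochberg) at a mean of at least 10 in a group. The test was checked on simulated data in which far fewer genes changed than were called here and noise was independent between genes. That check does not cover changes as broad as those in these data or signals shared by some libraries. Ratios were tested by exact permutation. Figures were drawn with matplotlib 3.10.9 (Python 3.11.15). Exon overlaps came from GENCODE vM1 on mm9, and promoters from RefSeq on GRCm38.p6, whose coordinates were not mixed with those of mm9.

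The text names the 10 genes, Crls1 and every called gene of a list of other pathway genes, plus Gyk, Fitm1 and other uncalled genes chosen after their values were seen. Genes, lists and markers were chosen with earlier results of these data known. Alternatives were pseudocounts of 0.1 and 10, no filter or a mean of at least 1, the same total, quantile normalization, 3 other limma settings, an adjusted p of 0.05, the replicate number as a block and each library left out. AdCKO 3 and 5 alone against Control, and scaling to adipocyte markers, were added after seeing the data. The rescaled fits kept the 11244 genes of the main filter, a choice made after they had been seen with the filter applied anew.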

Additional observations from a re-analysis of the deposited data

Results flagged for a closer look

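In 6 of 62 groups of 5 libraries examined (31 genes, each in Control and in AdCKO), the library at one end lay far from the others, with a gap to its nearest neighbour of more than 0.71 of the range. For independent, normally distributed groups, chance flags about 1 in 20. These genes share the same libraries and are not independent, so the count cannot be held against that rate. In 4 of the 6, that library was AdCKO 5 and lay high. Gpd1 measured 17477 in AdCKO 5 against 11985 in the next library, Agpat2 7107 against 6097, Lpin1 989 against 748 and Pck1 5665 against 4181. The other 2 groups were those of Pck2, at 24.0 in Control 3 (next 30.3) and 80.0 in AdCKO 1 (next 90.2).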

How the results depend on the processing

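Depth is unknown, so counting error could not be set beside the spread between mice, and no mouse carried Cre without the floxed allele. Pseudocounts, filters and the other limma variance models changed no call of the 10 genes. With array quality weights Aqp7 was also called (-0.35, limma adjusted p = 0.00555). At an adjusted p under 0.05, 8 of the 10 were lower, against 33.8% of all tested genes. With each library left out, between 7 and 8 were lower and 0 higher. Of the genes then tested, 25.6% to 27.2% were lower and 23.5% to 25.6% higher.

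The same total in every library gave 2 of the 10 higher, and 8 lower and 13 higher among the other pathway genes. Of all tested genes, 9.77% were then lower and 60.6% higher. Scaling to adipocyte markers gave 2 higher, and 6 lower and 15 higher, against 4.99% and 68.5% of all tested genes. Quantile normalization gave 1 of the 10 higher, against 22.4% of all tested genes. Signs turned under the same total for Aqp7 (0.19), Agpat5 (0.20), Cds1 (0.014) and Pparg (0.015). They turned under adipocyte marker scaling for Aqp7 (0.39), Lpin1 (0.15), Agpat5 (0.40), Cds1 (0.21), Pparg (0.22), Gpd1l (0.028), Bscl2 (0.070) and Fitm2 (0.13). Under quantile normalization Lpin2 turned to -0.049, the ratio of Agpat3 to Agpat2 to -0.15 and that of Gpd2 to Gpd1 to -0.57, and the ratio of Lpin2 to Lpin1 was 0.21 and not called. The cause was not tested.

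The numbers 1 to 5 occur in both groups, but libraries of 1 number did not deviate together (r from -0.27 to 0.10 across genes, and no library correlated best with its own number). With the replicate block the 10 genes kept their calls, at 7 lower and 0 higher, against 25.2% and 23.1% of all tested genes. Agpat5 (limma adjusted p = 0.0242) and Pparg (0.0147) were then not called. For the ratios the block left differences of -1.54 (Dgat2 to Dgat1), 0.74 (Lpin2 to Lpin1) and 0.35 (Agpat3 to Agpat2), each at an adjusted p of 0.083 by exact sign flips, which 5 pairs cannot bring under 0.05. With 1 library left out, the log2 differences ran from 0.60 to 0.91 for Lpin2 to Lpin1, from 0.28 to 0.43 for Agpat3 to Agpat2 and from 0.087 to 0.25 for Gpd2 to Gpd1.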
